A study of Bos taurus with 8 samples.

Results

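The HOX genes encode homeodomain transcription factors and lie in 4 clusters, HOXA, HOXB, HOXC and HOXD. Their probes on the bovine array were taken by symbol, as every noncontrol probe whose gene name, or symbol in the probe description, was HOXA, HOXB, HOXC or HOXD followed by a number. This gave 25 genes with 39 probes, out of 16547 gene symbols and 43653 noncontrol probes. A gene with more than 1 probe was represented by the brightest, by its mean over all arrays. RefSeq lists 39 bovine HOX genes, and the other 14, among them HOXA11, HOXB5, HOXB6 and HOXD9, did not enter by this rule. All 25 were Bos taurus genes measured in endometrium, the inner lining of the uterus. Each uterine horn had received 25 mL of fluid on day 1 after standing estrus, and tissue was taken on day 7 from the horn next to the corpus luteum. The fluid held methylglyoxal, a reactive dicarbonyl formed during glycolysis, at 5 mM in 4 cows, and 4 further cows received it at 0 mM. Each cow gave 1 sample and 1 one-colour array, and the stated purpose was to see how methylglyoxal given into the uterus affects endometrial mRNA.

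In vertebrates the order of HOX genes along a cluster follows the order in which they act along the body axis, so that low paralogue numbers pattern the head and neck and high numbers the tail end. In the Müllerian ducts of the mouse, Hoxa9 marks the oviduct, Hoxa10 the uterus, Hoxa11 the lower uterus and cervix and Hoxa13 the upper vagina. HOXA10 and HOXA11 stay active in the adult endometrium, where they are known for their part in stromal decidualization and implantation in mice and humans.

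Levels are given as log2 processed signal minus the log2 of that array's 75th percentile, and every difference is 5 mM minus 0 mM. Signals of different probes were not set against each other, since probes differ in hybridisation. Between 68.3% and 73.1% of probes were well above background on each array, and the number of arrays limits the precision. All 11 uterus markers found on the array, HOXA10 among them, were well above background on at least 1 array. The array of 5 mM replicate 1 stood apart from the other 7. Its mean over 19 epithelium markers, centred per gene, was -3.12, against 0.32 to 0.51 in the other 5 mM samples and 0.30 to 0.79 in the 0 mM samples, and 18 of the 19 markers lay below the range of the other arrays. The remaining one, the cadherin gene CDH3, lay above it, at -0.11 against -5.43 to -2.65. The mean of 5 mM replicate 1 over 16 smooth muscle markers was 2.41, beside 1.43 in 5 mM replicate 3 and 1.21 in 0 mM replicate 1, while the remaining 5 samples lay between -1.52 and -0.80. Of the 16, 14 lay above the range of the other arrays, and MYLK and CASQ2 lay within it. Ciliated (-2.53), T and NK cell (-1.09) and stromal fibroblast (0.62) means of this sample also lay outside the range of the others. The B and plasma cell mean (-0.013) lay within it. Every listed epithelium and smooth muscle marker on the array was well above background in at least 1 sample. In a piece of tissue, fewer cells of a type and less RNA per cell cannot be told apart, and the part of these tissue differences in the HOX values was not tested. HOX results that rest on 5 mM replicate 1 are therefore given with and without it.

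The homeobox, the stretch of DNA that encodes the DNA-binding homeodomain, is alike among HOX genes, so the probe sequences were compared with each other. They were not compared with whole transcripts, so whether a probe also reads another HOX gene was not tested. Of the 39 probes, 4 shared a run of at least 15 bases with a probe of another HOX gene. Runs of 20 bases that the neighbouring sequences below have in common stand in capitals, each 60-base probe being written 5′ to 3′ as deposited in the array files. The first HOXB4 probe shares its run with HOXD12, in the part of the homeobox that encodes the helix contacting DNA, and it also holds, in lower case, the run of 20 bases that the second HOXB4 probe shares with HOXD4. A HOXC11 probe, whose values are described further on, is shown beside them and has no run of 15 bases in common with another HOX gene's probe.
HOXB4, probe A_73_P109806: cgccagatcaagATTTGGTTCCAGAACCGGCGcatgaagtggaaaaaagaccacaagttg
HOXD12, probe A_73_119442: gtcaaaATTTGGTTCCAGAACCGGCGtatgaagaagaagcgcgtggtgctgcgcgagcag
HOXB4, probe A_73_P065611: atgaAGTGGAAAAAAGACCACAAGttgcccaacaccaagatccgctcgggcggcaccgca
HOXD4, probe A_73_P403596: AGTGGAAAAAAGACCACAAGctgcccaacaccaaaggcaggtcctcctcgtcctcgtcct
HOXC11, probe A_73_P090116: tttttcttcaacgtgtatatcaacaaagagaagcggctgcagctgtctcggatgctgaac

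On the HGSC Btau_3.1 build that the arrays use, the first HOXB4 probe lies at chr19:39119039-39119098 and overlaps the second HOXB4 probe by 27 bases. The HOXD12 probe lies at chr2:21476465-21476524 and the HOXC11 probe at chr5:28908407-28908466. Exons and untranslated regions of this build were not used here. The HOXB4 probe shown first was well above background on 8 of 8 arrays and the HOXD12 probe on 0 of 8. What the shared 20 bases add to the signal of either probe was not tested. The second HOXB4 probe and the HOXD4 probe were both well above background on 8 of 8 arrays.

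Detection was read by cluster and by paralogue number. On at least 4 arrays, 27 of the 39 HOX probes were well above background, beside 31108 of all 43653 noncontrol probes. The share of all genes that were so on every array was not counted. The brightest probe of 16 of the 25 genes was well above background on every array with a value, 4 genes were so on some arrays (HOXB7, HOXC4, HOXC11 and HOXC13) and 5 on none (HOXB1, HOXC5, HOXC12, HOXD12 and HOXD13). All 7 HOXA genes were in the first class, and so were 5 of 7 HOXB, 1 of 6 HOXC and 3 of 5 HOXD genes. By paralogue number, 4 of the 5 genes numbered 1 to 3, 7 of the 10 numbered 4 to 8 and 5 of the 6 numbered 9 to 11 were well above background on every array with a value. None of the 4 genes numbered 12 or 13 was, and of these only HOXC13, a regulator of hair and nail keratins, was well above background on some arrays (5 of 8). HOXD13, a regulator of digit and external genital development, and its neighbour HOXD12 were well above background on 0 of 8. HOXB1, a hindbrain segment gene, and HOXC5 and HOXC12 were also at 0 of 8. The signals of these 5 genes lay between -9.21 and -6.46 over all samples of both groups. Under the scanner's less strict call of a positive and significant signal, 20 genes passed on every array with a value and 0 passed on none, so a gene not well above background is one with a low or unclear signal. HOXB1 and HOXC5 passed this call on only 1 of 8 arrays each, HOXD12 on 2, HOXC12 on 4 and HOXD13 on 5. The call also depends on the probe. A HOXA2 probe and a HOXA3 probe were at 0 of 8, beside brighter probes of the same genes at 8 of 8. A second HOXC13 probe and a second HOXC4 probe were also at 0 of 8, beside brighter probes at 5 and 7 of 8. HOXB1, HOXC5, HOXC12 and HOXD12 had a single probe each.

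**Figure D1:**
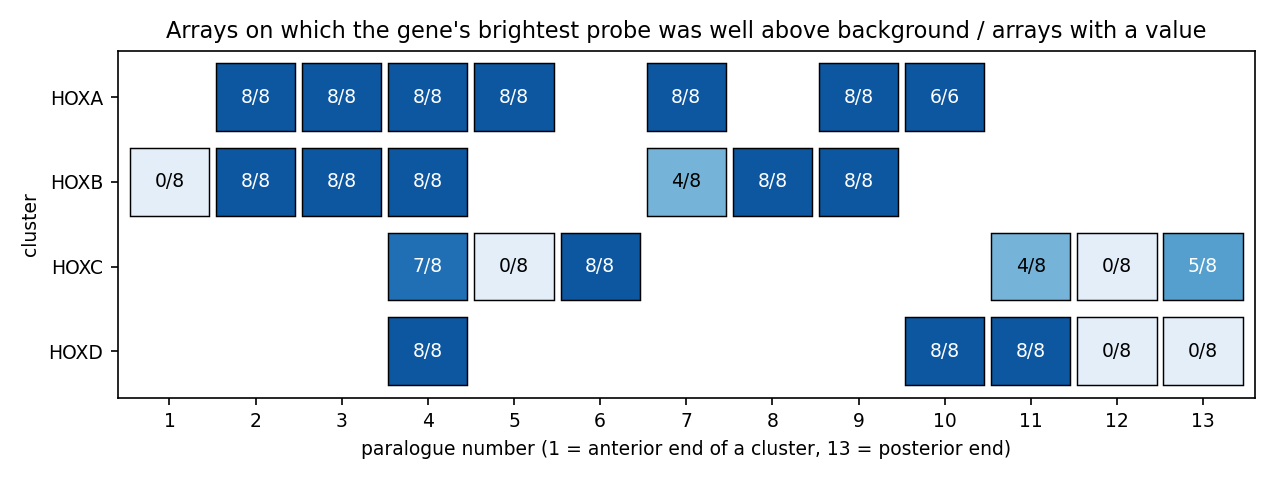
Each box is 1 of the 25 HOX genes, placed by cluster (rows) and paralogue number (columns), and its text gives the arrays on which the brightest probe was well above background over the arrays with a value. The HOXA row is dark throughout, and columns 12 and 13 hold 3 boxes at 0/8 and 1 at 5/8.

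The comparison between 5 mM and 0 mM asked whether HOX transcripts differed on day 7 after methylglyoxal. None of the 20 HOX genes tested, those well above background on at least 4 arrays, passed the limma test after Benjamini-Hochberg adjustment over all 31108 tested probes (0 of 20, where 0% of all tested probes did). At an unadjusted p under 0.05 there was 1 HOX gene, HOXB3 (5% of the 20, against 1.91% of all tested probes). No HOX gene had 4 values of one group wholly above those of the other, against 1.54% of all tested probes. The median difference of the 20 genes was 0.22, with 12 above 0 and 8 below, and over all 12715 tested genes with a symbol it was 0.011. Without 5 mM replicate 1 the HOX median was 0.017, with 11 above 0 and 9 below, and the all-gene median 0.012. The spread of the HOX genes within the 5 mM group was also smaller without that array. Their median SD was 0.55 at 5 mM (0.20 without replicate 1) and 0.36 at 0 mM, where all genes had 0.37 (0.25) and 0.27.

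**Figure D2:**
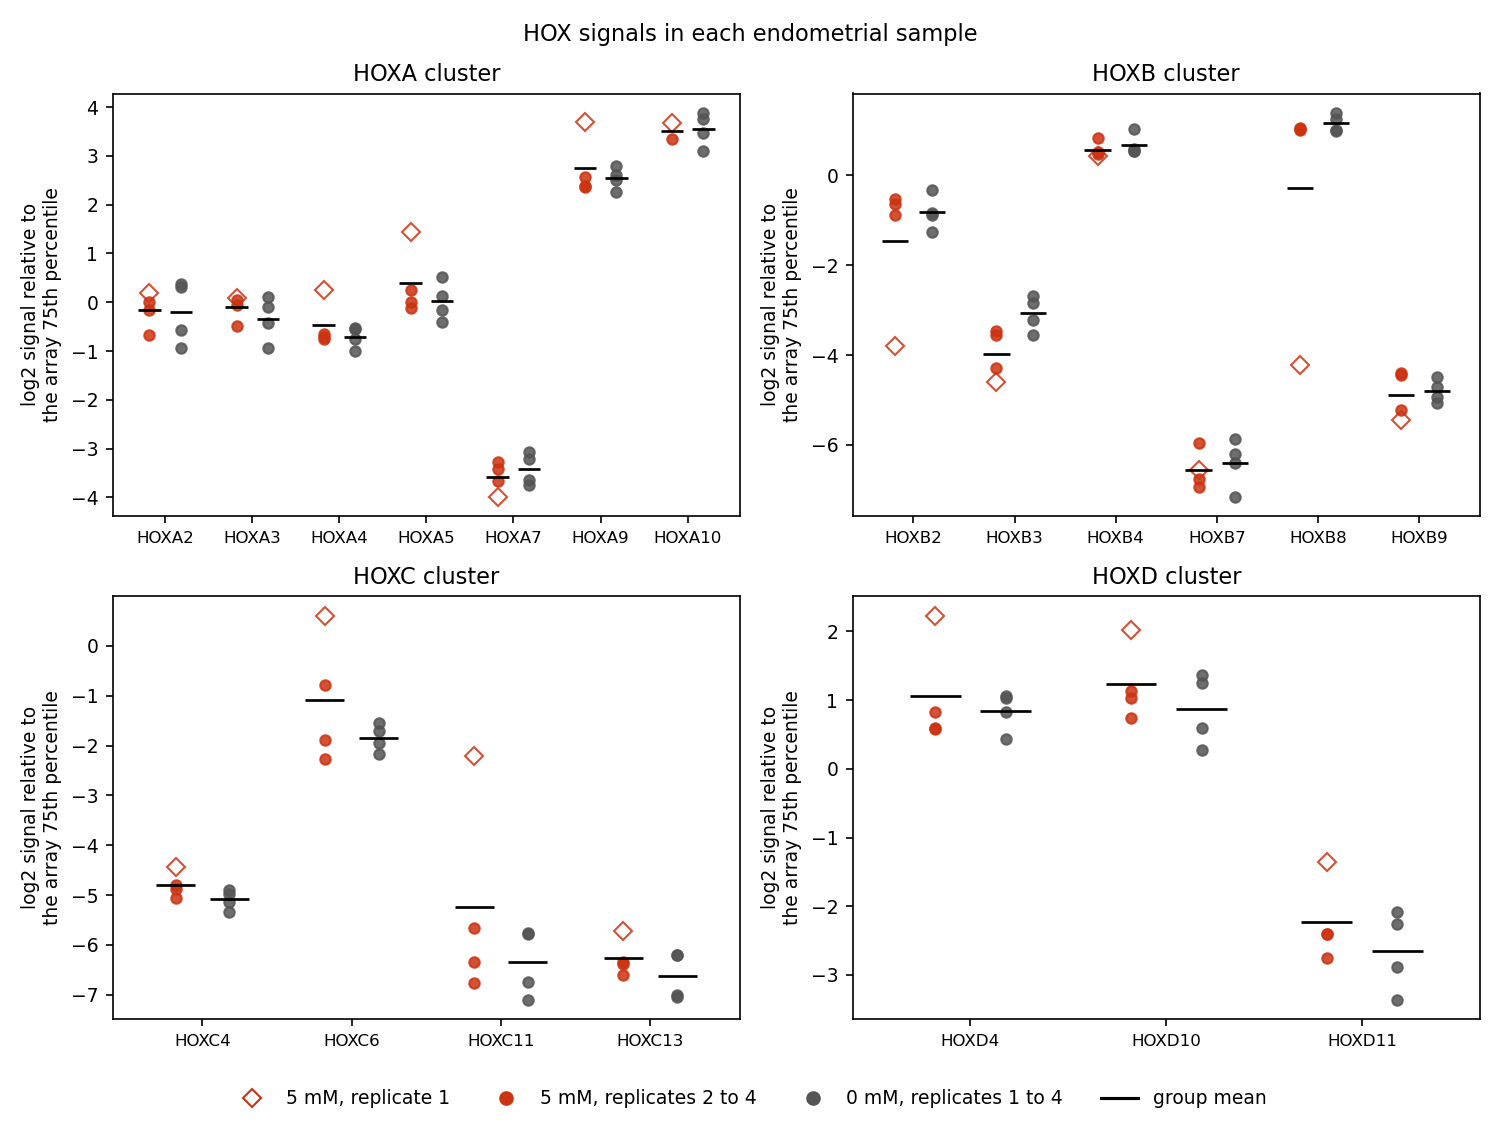
Log2 signal relative to the array's 75th percentile (vertical axis, a separate scale in each panel) of the 20 tested HOX genes in each sample, with 5 mM in red left of 0 mM in grey, replicate 1 of 5 mM as an open diamond and black bars for group means. In HOXB8 and HOXB2 the diamond lies far below every other point, and in HOXC11, HOXC6 and HOXD4 it lies above them all.

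Among the anterior genes, HOXB3, which acts with its paralogues in hindbrain and pharyngeal patterning, had the lowest unadjusted p of the family. HOXB3 was -4.59, -3.54, -3.47 and -4.28 in 5 mM replicates 1 to 4, against -3.55, -3.22, -2.69 and -2.83 in 0 mM replicates 1 to 4. The groups overlapped only at 0 mM replicate 1, the lowest of its group, which lay just below 5 mM replicates 2 and 3. The difference was -0.90 ± 0.31 (SE; 95% interval -1.62 to -0.17), with a limma p of 0.021 unadjusted and 0.913 adjusted. Without 5 mM replicate 1 it was -0.69. Within slides 1, 2 and 3 it was -1.04, -0.59 and -1.04. With normexp background correction it was -0.40 (limma unadjusted p = 0.148). Leaving out 5 mM replicate 4, 0 mM replicate 3 or 0 mM replicate 4 gave -0.79, -0.77 and -0.82, and in each of these the limma unadjusted p was no longer under 0.05.

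HOXB2, needed for facial motor neurons, was -3.80 in 5 mM replicate 1 and -0.52, -0.64 and -0.88 in the other 5 mM samples, against -0.87, -0.33, -1.25 and -0.83 in 0 mM replicates 1 to 4. Only replicate 1 of 5 mM lay away from the rest, and the difference of -0.64 ± 0.71 became 0.14 without it. HOXA2, which sets the identity of the second pharyngeal arch, averaged -0.16 ± 0.37 in 5 mM and -0.20 ± 0.65 in 0 mM samples (SD, n = 4 each). HOXA3, needed for thymus and parathyroid formation, averaged -0.10 ± 0.26 in 5 mM and -0.34 ± 0.45 in 0 mM samples. Both genes overlapped widely between the groups, with 95% intervals of -0.75 to 0.83 for HOXA2 and -0.34 to 0.81 for HOXA3. Their differences of 0.04 and 0.24 were -0.07 and 0.17 without 5 mM replicate 1.

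Among genes of the central part of the clusters, HOXB8, known in the mouse from blood progenitors and from microglia, showed the widest spread. HOXB8 was -4.21 in 5 mM replicate 1 and 1.07, 1.02 and 1.02 in replicates 2 to 4, against 1.25, 1.40, 1.01 and 1.00 in 0 mM replicates 1 to 4. The other 7 arrays thus lay within 0.40 of each other, and 5 mM replicate 1 lay far below them. The difference of -1.44 ± 1.15 (95% interval -4.09 to 1.20, limma adjusted p = 0.913) was -0.13 without that array.

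HOXC6, a thoracic segment gene, was 0.61, -2.27, -0.79 and -1.88 in 5 mM replicates 1 to 4, against -1.55, -2.16, -1.70 and -1.95 in 0 mM replicates 1 to 4. The 2 highest values were those of 5 mM replicates 1 and 3, which also had the 2 highest smooth muscle means. The difference of 0.76 ± 0.58 was 0.19 without 5 mM replicate 1. HOXD4, a gene of the neck vertebrae, was 2.23, 0.59, 0.58 and 0.82 in 5 mM replicates 1 to 4, against 1.02, 0.43, 0.83 and 1.06 in 0 mM replicates 1 to 4. Apart from 5 mM replicate 1 the groups lay in the same range, and the difference of 0.22 ± 0.38 turned to -0.17 without it. HOXA5, which acts in lung and thoracic development, was 1.44, 0.25, 0.01 and -0.12 in 5 mM replicates 1 to 4, against 0.51, 0.14, -0.41 and -0.15 in 0 mM replicates 1 to 4. Unlike HOXC6, HOXD4 and HOXA5 in 5 mM replicate 3 lay within the range of the 0 mM samples. Whether HOX values follow the smooth muscle means was not tested. For HOXA5, 5 mM replicate 1 was the highest sample. The HOXA5 difference of 0.37 ± 0.37 was 0.03 without 5 mM replicate 1, and that of HOXA4, 0.25 ± 0.25, was 0.01.

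HOXB4, known for expanding blood stem cells, averaged 0.57 ± 0.18 in 5 mM and 0.68 ± 0.24 in 0 mM samples (SD, n = 4 each) by its brightest probe. The difference was -0.11 ± 0.17, with a 95% interval of -0.50 to 0.28, and -0.07 without 5 mM replicate 1. HOXA7, a thoracic gene, differed by -0.17 ± 0.23 and HOXC4, which in the mouse acts in activated B cells, by 0.30 ± 0.18. Without 5 mM replicate 1 these were -0.03 and 0.18. HOXC4 was well above background in 4 of 4 samples at 5 mM and 3 of 4 at 0 mM. HOXB7 was so in 1 of 4 samples at 5 mM and 3 of 4 at 0 mM, and its difference of -0.15 ± 0.32 lies near background.

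Among the posterior genes, HOXA10, the uterine segment gene, was 3.66 and 3.34 in 5 mM replicates 1 and 2, against 3.11, 3.47, 3.76 and 3.88 in 0 mM replicates 1 to 4. Its 1 probe, at chr4:71604433-71604492, has no value in 5 mM replicates 3 and 4, where the scanner had marked the spot as an outlier. The groups overlapped, and the difference was -0.05 ± 0.27 (95% interval -0.72 to 0.62). Leaving out 5 mM replicate 1, which left 1 value at 5 mM, gave -0.21. With the marked spots kept, replicates 3 and 4 were 3.39 and 3.09 and the difference was -0.18 ± 0.21 (limma unadjusted p = 0.41). HOXA9, the oviduct segment gene, was 3.70, 2.37, 2.58 and 2.38 in 5 mM replicates 1 to 4, against 2.80, 2.26, 2.51 and 2.60 in 0 mM replicates 1 to 4. The difference of 0.21 ± 0.31 was -0.10 without 5 mM replicate 1.

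HOXD10, which acts in the limbs and in motor neurons of the hindlimb, was 2.02, 0.74, 1.04 and 1.13 in 5 mM replicates 1 to 4, against 0.60, 0.28, 1.25 and 1.36 in 0 mM replicates 1 to 4. HOXD11, which with HOXA11 shapes forearm and kidney, was -1.36, -2.75, -2.40 and -2.41 in 5 mM replicates 1 to 4, against -2.88, -3.36, -2.26 and -2.08 in 0 mM replicates 1 to 4. In both genes 5 mM replicate 1 was the highest sample and the rest overlapped, and their differences of 0.36 ± 0.35 and 0.42 ± 0.38 were 0.10 and 0.13 without it. In both genes, too, 0 mM replicates 3 and 4 lay above 0 mM replicates 1 and 2. HOXB9, a gene of rib patterning, differed by -0.08 ± 0.28 and HOXC13 by 0.36 ± 0.29. HOXB9 turned to 0.11 and HOXC13 was 0.18 without 5 mM replicate 1.

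HOXC11, a gene of the lumbosacral region and hindlimb, was -2.21 in 5 mM replicate 1 and -6.76, -5.67 and -6.35 in replicates 2 to 4, against -6.74, -5.76, -7.10 and -5.79 in 0 mM replicates 1 to 4. It was well above background in 2 of 4 samples of each group. A second HOXC11 probe was -4.89 in 5 mM replicate 1, its only array well above background, and between -9.05 and -8.69 on the other 7. Both probes thus placed the HOXC11 signal of this sample apart. The difference of 1.1 ± 0.95 by the first probe was 0.09 without it.

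**Figure D3:**
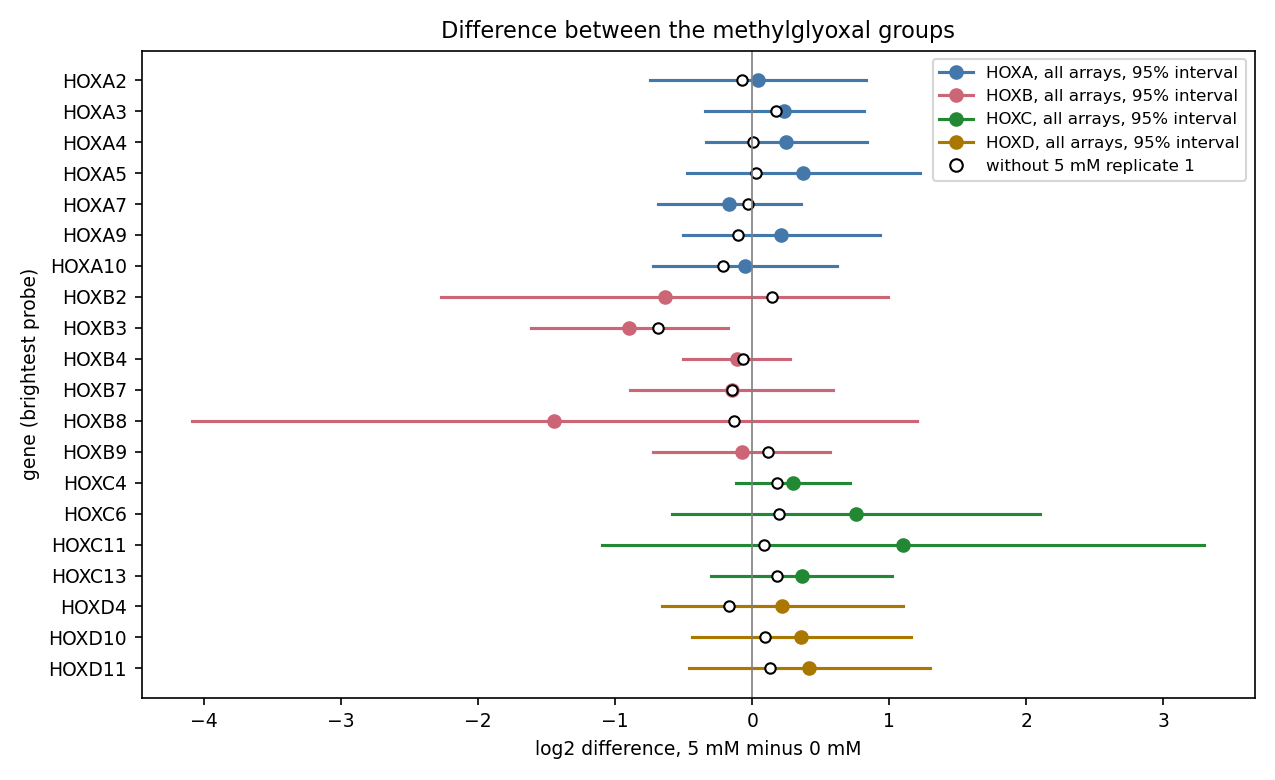
Log2 difference between 5 mM and 0 mM (horizontal axis) for each tested HOX gene, with filled points and 95% intervals from all arrays, coloured by cluster, and open points without 5 mM replicate 1. The interval of HOXB3 alone excludes 0, and the open points of HOXB8 (-0.13) and HOXC11 (0.09) lie far from their filled points (-1.44 and 1.1).

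The difference had the same sign in all tested genes of HOXB, of HOXC and of HOXD, but not of HOXA. All 6 tested HOXB genes were below 0, between -1.44 and -0.08, whereas 4 of 4 HOXC genes, between 0.30 and 1.1, 3 of 3 HOXD genes, between 0.22 and 0.42, and 5 of 7 HOXA genes were above 0. Of all tested genes with a symbol, 48.2% were below 0. None of these HOX genes apart from HOXB3 had an unadjusted p under 0.05. The HOXB count includes HOXB7, whose probe may not read HOXB7 mRNA. The HOXC count includes HOXC4, HOXC11 and HOXC13, which were well above background on only 7, 4 and 5 of 8 arrays. The HOXC11 difference of 1.1 was 0.09 without 5 mM replicate 1. HOXD8, which did not enter by the rule, is not in the HOXD count, and its probe differed by -0.0087 ± 0.24. Without 5 mM replicate 1 the split was 4 below and 2 above 0 for HOXB, 4 above for HOXC, 2 above and 1 below for HOXD and 3 above and 4 below for HOXA.

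The values of 5 mM replicate 1, which enter these differences, are given on their own here and are not separate evidence of the split. Set against the median of the other 7 arrays, this sample was lower in 6 of 6 HOXB genes and higher in 4 of 4 HOXC, 3 of 3 HOXD and 6 of 7 HOXA genes. In all, 13 of 20 HOX genes were above that median, against 53.5% of all tested probes, and 7 were below, against 46.5%. It was the highest of the 8 arrays in 10 HOX genes (50%, against 34% of all tested probes) and the lowest in 6 (30%, against 28.1%). The 10 were HOXA4, HOXA5, HOXA9, HOXC4, HOXC6, HOXC11, HOXC13, HOXD4, HOXD10 and HOXD11, and the 6 were HOXA7, HOXB2, HOXB3, HOXB4, HOXB8 and HOXB9. A gap of at least 1 log2 unit to the next array was found above in HOXC6, HOXC11 and HOXD4 (3 of 20, against 3.2% of all tested probes) and below in HOXB2 and HOXB8 (2 of 20, against 8.7%). HOXC11 was well above background on 4 of 8 arrays, the fewest that the filter allowed. Its place among the 20 genes, and so in these counts, may therefore rest on 5 mM replicate 1 itself. On none of the other 7 arrays did a HOX gene lie apart by this much, where between 0.055% and 0.42% of all tested probes did in either direction. The HOXB8 gap of -5.24 from the median was matched or passed downwards by 0.846% of all tested probes, and the HOXC11 gap of 4.14 upwards by 0.428%. These counts describe 1 cow, and no test was made on them.

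**Figure D4:**
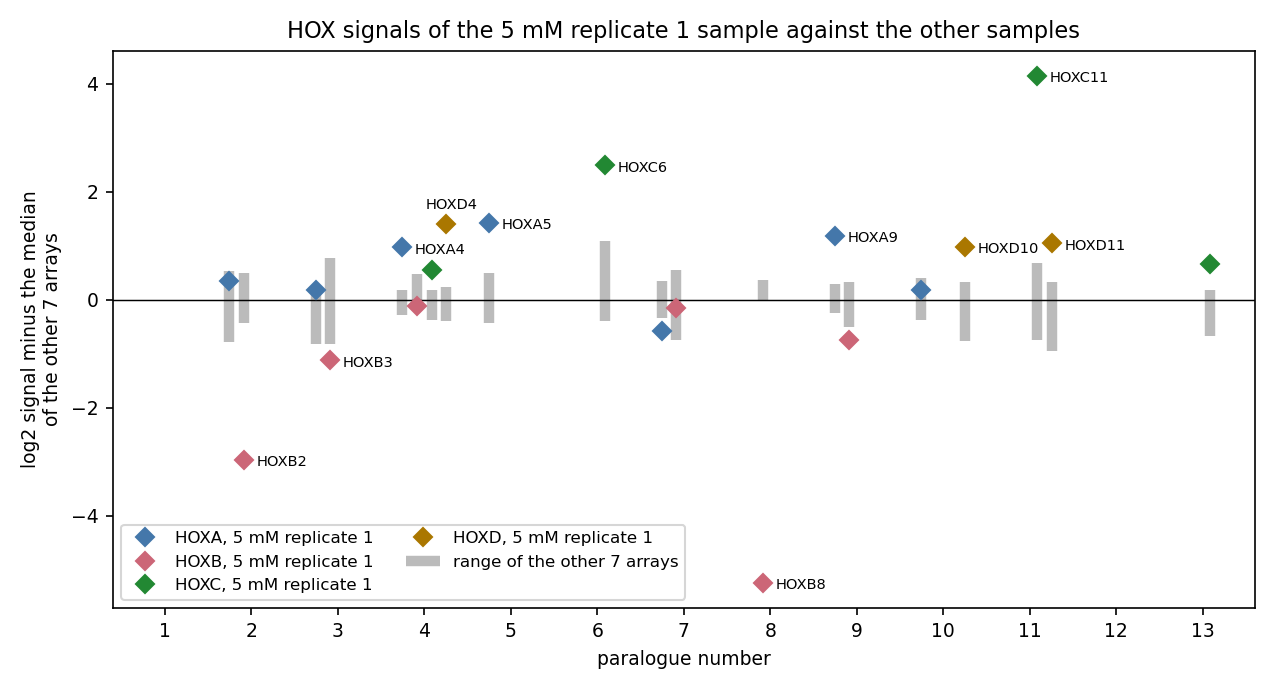
Log2 signal of 5 mM replicate 1 minus the median of the other 7 arrays (vertical axis) for each tested HOX gene by paralogue number, with grey bars for the range of those 7 arrays. HOXB genes all lie below 0 (HOXB8 at -5.24 and HOXB2 at -2.97), and HOXC and HOXD genes all lie above 0 (HOXC11 at 4.14 and HOXC6 at 2.49).

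Several genes had more than 1 tested probe, which allows a check of the gene's value. Of 6 such genes, HOXA9, HOXD4 and HOXD10 had probes that placed 5 mM replicate 1 above every other array, at a distance from their median of 1.18 and 1.49 in HOXA9, 1.41 and 1.11 in HOXD4 and 0.98 and 1.26 in HOXD10. Both HOXA3 probes placed it within the range of the other arrays, 0.19 and 0.45 above their median. The HOXB2 probes were both lowest in that sample, by -2.97 and -0.82 from the median of the others. HOXB4 probes did not give the same size. The brightest, which reads the homeobox, was 0.44 in 5 mM replicate 1 and 0.48 to 1.03 elsewhere, and the one that overlaps it was -3.90 there and -3.85 to -3.05 elsewhere. The third HOXB4 probe, which shares no run longer than 8 bases with another HOX gene's probe, was -5.43 in 5 mM replicate 1, against -2.67 to -1.96 on the other 7 arrays. By this probe HOXB4 therefore stood lower in that sample by 3.19 log2 units, as HOXB2 and HOXB8 did, and by its brightest probe by 0.11. The brightest HOXB7 probe maps to the minus strand, opposite to the other 10 HOXB probes, and may not read HOXB7 mRNA, so its values are uncertain. All 11 HOXA probes map to the plus strand and all 9 HOXC and 8 HOXD probes to the minus strand.

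Genes that work with or around HOX proteins were read from 7 lists, and none of their genes passed the adjusted threshold. Over all 12715 tested genes with a symbol, 6587 were above 0 and 6128 below, with a median difference of 0.011. Of 8 tested TALE cofactors, homeodomain partners that bind DNA with HOX proteins, 5 were above 0 and 3 below, with a median difference of 0.22 (0.098 without 5 mM replicate 1). Of these, PBX4 averaged -5.23 ± 0.67 in 5 mM and -4.58 ± 0.26 in 0 mM samples (SD, n = 4 each), a difference of -0.65 that was -0.32 without 5 mM replicate 1. PBX3 differed by 0.18 ± 0.14. Of 32 Polycomb and trithorax genes, whose products keep HOX clusters silent or active, 24 were above 0 and 8 below, with a median of 0.11 (0.027 without 5 mM replicate 1). PCGF1, a Polycomb complex subunit, differed by 0.34 ± 0.14 (limma unadjusted p = 0.043, adjusted 0.913). An unadjusted p under 0.05 in limma was found for 1 of the 32, against 1.91% of all tested probes. KMT2B, a histone H3 methyltransferase, differed by 0.46 ± 0.24 and BMI1, another Polycomb subunit, by 0.43 ± 0.23.

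Retinoic acid is the classic inducer of anterior HOX genes. Of 17 tested retinoic acid pathway genes, 6 were above 0 and 11 below, with a median of -0.41 that was -0.097 without 5 mM replicate 1. DHRS9, a retinol dehydrogenase, differed by -0.76 ± 0.33, RBP4, the retinol carrier, by -0.68 ± 0.38 and CRABP2, a retinoic acid binding protein, by -0.84 ± 0.63. RBP4 and CRABP2 were lowest in 5 mM replicate 1, at 1.11 and -1.94, and differed by -0.31 and -0.29 without it. Of 22 Müllerian duct and uterine patterning genes, 10 were above 0 and 12 below, with a median of -0.16 (-0.035 without 5 mM replicate 1). An unadjusted p under 0.05 in limma was found for 2 of the 22, against 1.91% of all tested probes. The transcription factor gene GATA3 differed by -0.96 ± 0.39 (limma unadjusted p = 0.041, adjusted 0.913). HAND2, a stromal transcription factor gene, differed by -0.73 ± 0.31 (limma unadjusted p = 0.046, adjusted 0.913). OSR2 differed by 0.33 ± 0.15.

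Of 15 genes reported as HOXA10 or HOXA11 targets in the uterus, 10 were above 0 and 5 below, with a median of 0.057 (0.042 without 5 mM replicate 1). FOXO1, a regulator of decidualization, differed by 1.00 ± 0.71 and by 0.25 without 5 mM replicate 1. PTGER3, a prostaglandin E receptor gene, was 2.86, -3.94, 0.43 and -2.56 in 5 mM replicates 1 to 4, against -0.37, -4.02, -3.15 and -3.70 in 0 mM replicates 1 to 4. Its 3 highest samples, 5 mM replicates 1 and 3 and 0 mM replicate 1, were those with the highest smooth muscle means, a match that was not tested. PTGER3 differed by 2.01 ± 1.51 and TGFB2 by 0.49 ± 0.39, and without 5 mM replicate 1 by 0.79 and 0.19. Of 24 genes that flank the clusters, 14 were above 0 and 10 below, with a median of 0.058 (0.062 without 5 mM replicate 1). SNX10 and JAZF1, which lie near HOXA, differed by 0.57 ± 0.37 and 0.28 ± 0.24, and SMUG1, near HOXC, by 0.31 ± 0.27. These were 0.25, 0.11 and 0.39 without 5 mM replicate 1. Of 9 other homeobox genes, 3 were above 0 and 6 below, with a median of -0.13 that turned to 0.11 without 5 mM replicate 1. MEOX1, MEOX2 and DLX1 differed by 1.5 ± 0.90, 0.77 ± 0.60 and 0.42 ± 0.32, and MEOX1 was highest in 5 mM replicates 1 and 3 (-0.54 and -0.79). Without 5 mM replicate 1 their differences were 0.98, 0.32 and 0.14.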

How the data were processed

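The deposited array files hold spot intensities on a linear scale, from which Agilent Feature Extraction had, per the file headers, subtracted the background with no scaling across the set. The file headers name version 11.5.1.1, and the submitters' processing notes name 10.5.1.1. Probes are those of Agilent design 023647 and the file headers place them on HGSC Btau_3.1. The deposited value table holds log2 values; its columns correlated with these signals, after centring each probe on its median, with a coefficient (Pearson) of 0.9995 or more, and their medians ran from -0.023 to 0.13.

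Control spots were dropped, as were spots that the scanner had marked as outliers. Processed intensities were taken to log2, shifted by each array's 75th percentile and averaged per probe. Groups were compared with limma 3.58.1 in R 4.3.3 (lmFit, eBayes) over the 31108 probes well above background on at least 4 of 8 arrays, with Benjamini-Hochberg adjustment and a threshold of 0.05. The limma fit was tested on simulated normal values with known changes, with no array set apart from the others. A symbol in the probe description counted only where it stood in brackets, as for HOXB2. Symbols were updated through a RefSeq table of ARS-UCD2.0, and 34008 probes had one. The text names every HOX gene and, of each related list, the 3 genes with the lowest unadjusted p, except 1 that is not reported here. Members and lists were chosen with earlier results of these data known.

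Both replicates 1 were on slide 1, 5 mM replicate 2 was on slide 2 with 0 mM replicates 2 and 3, and 5 mM replicates 3 and 4 were on slide 3 with 0 mM replicate 4. Alternatives were quantile normalization, a median shift, normexp (offset 50), other filters, array weights, eBayes with trend and robust settings, the deposited table, a threshold of 0.1, averaging a gene's probes, slide and replicate blocks, within-slide values and leaving out each cow. Keeping marked spots, and setting each array against the range of the others, were added after seeing the data.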

Additional observations from a re-analysis of the deposited data

Results flagged for a closer look

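In 39 groups of 4 samples with no missing value, the extreme sample was compared with its nearest neighbour by Dixon's ratio, which flags about 1 in 20 groups by chance. There were 6 such groups, 5 of them through 5 mM replicate 1. In the 5 mM group these were 5 of 19 HOX genes, where the same ratio marked 7.04% of all tested probes (4.96% through 5 mM replicate 1), and in the 0 mM group 1 of 20, against 5.37%. No test was made on these counts. In the 5 mM group, HOXB8 had a lowest value of -4.21, against 1.02 to 1.07 in the other 3 samples, and HOXB2 a lowest value of -3.8, against -0.88 to -0.52. In the same group, HOXD4 had a highest value of 2.23, against 0.58 to 0.82, HOXA9 one of 3.7, against 2.37 to 2.58, and HOXA4 one of 0.26, against -0.74 to -0.65. In the 0 mM group, HOXB4 had a highest value of 1.03, in replicate 2, against 0.54 to 0.60 in the other 3.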

How the results depend on the processing

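The count of HOX genes with an adjusted p under 0.05 was 0 in every setting that gives a test. The count at an unadjusted p under 0.05, 1 by the main settings, was 0 with normexp and without 5 mM replicate 4, 0 mM replicate 3 or 0 mM replicate 4. HOXB3 differed by between -1.06 and -0.40 over its alternatives. The median difference of the tested HOX genes, 0.22, was 0.042 with no filter, 0.045 with array weights, where 5 mM replicate 1 had the lowest weight (0.19), and 0.52, 0.029 and -0.12 within slides 1, 2 and 3. It ran from 0.017 (without 5 mM replicate 1) to 0.32 over the fits that leave out 1 cow; the fewer samples aside, the cause was not tested. With the replicate block it was 0.22, and the count of adjusted calls was 0. Same-numbered samples deviated together in pairs 1, 2 and 4 (r = 0.40, 0.36 and 0.31 across probes) but not in pair 3 (r = -0.30), so the numbers were not taken as pairs. Pairs 1, 2 and 4 each shared a slide and pair 3 did not, so number and slide largely coincide. Unlike-numbered samples on one slide gave r = 0.30 (5 mM replicate 2 with 0 mM replicate 3) and -0.071 (5 mM replicate 3 with 0 mM replicate 4). Of 20 HOX genes, 12 kept their sign in all alternatives other than single slides, and 8 changed it in at least 1, HOXA10 in 7 of 18. HOX genes without overlap between groups numbered 0 to 1. Few arrays per group, 2 values of HOXA10 at 5 mM, and HOXB7, HOXC11 and HOXC13 signals near background limit what the differences can show.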

Other observations

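Probes inside the clusters that carry no HOX symbol of the kind used in the report, but are described as similar to HOX proteins, or have such a symbol in RefSeq, were read as well. They were chosen after the data were seen. A probe in the HOXA cluster described as similar to Hox-A11 was 4.11, 3.60, 3.65 and 3.75 in 5 mM replicates 1 to 4, against 3.48, 3.59, 3.76 and 3.88 in 0 mM replicates 1 to 4, and was well above background on 8 of 8 arrays. Its difference was 0.10 ± 0.17 (SE). A HOXA13 probe, for the vaginal segment gene, was well above background on 1 of 8 arrays, and a HOXB13 probe on 0 of 8.

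In 5 mM replicate 1, a probe described as HOXC10 was -2.17, against -6.01 to -4.89 on the other 7 arrays. A HOXC8 probe, well above background on only 1 of 8 arrays, was -4.52 there, against -8.85 to -8.09. A pair of HOXA6 probes was 0.18 and 2.53 there, against -2.09 to -1.24 and -0.64 to 1.08. An unnamed probe of the HOXB cluster, CB222869, was 2.87 there, against 4.07 to 4.58. A probe described as a fragment of HOXA13, but placed on chromosome 23 and so outside the cluster, was -3.48 there, against 0.81 to 1.72. Other HOXC10 probes were well above background on 1 and 0 of 8 arrays. Between the groups, a HOXD8 probe differed by -0.0087 ± 0.24 and HOXD9 probes by 0.16 ± 0.32 and 0.018 ± 0.34.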
